A study of Sus scrofa with 6 samples.

Results

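The claudins are the membrane proteins that form the strands of tight junctions, and the members described here are 10 claudin genes picked by symbol: CLDN1, CLDN2, CLDN3, CLDN4, CLDN5, CLDN6, CLDN7, CLDN10, CLDN12 and CLDN16. Of the 17670 genes in the count table, 8 carried 1 of these symbols, while CLDN5 and CLDN12 had no row by symbol and were not analysed here. Since 4529 rows carry no symbol, it is not known whether these genes are among them. The family was singled out with the contrast of AA2P against control in view, so the fold changes of its members describe these libraries and support nothing further. RNA was sequenced from cells labelled immature Sertoli cells, grown in culture from fetal pig testis of 80 to 90 days gestation. The AA2P group had 3 libraries from cells that received the vitamin C derivative L-ascorbic acid 2-phosphate (AA2P) at 250 µM once they had been in culture for 6 h, and the control group had 3 libraries from cells of the same kind without it. The medium of both groups held 10% serum and 1% antibiotic. How long the treatment lasted is not given in the sources used here.

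Claudins span the membrane several times, and the first extracellular loop of each decides which ions can pass between neighbouring cells. Sealing claudins such as CLDN1, CLDN3 and CLDN5 close the space between cells. Pore-forming claudins let ions through: CLDN2 forms a channel for small cations and water in leaky epithelia such as the proximal kidney tubule, CLDN10 forms cation or anion channels depending on its isoform, and CLDN16 acts with CLDN19 in the handling of magnesium and calcium by the kidney. CLDN4, CLDN6, CLDN7 and CLDN12 have been given different roles in different tissues. In the testis, Sertoli cells join each other by tight junctions that make up the blood-testis barrier, and CLDN11, the claudin best known there, had no row by symbol and was not analysed here.

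Library totals ran from 18747307 to 23122000 counts in the AA2P group and from 19299585 to 23521291 in the control group. Levels are given in CPM, read counts relative to the library size after TMM scaling, and 3 counts correspond to 0.123 to 0.165 CPM, a limit that covers counting error only. Scaling by library totals in place of TMM moved the median change over the tested genes by 0.17 on the log2 scale, and every change is given relative to TMM. AA2P library 3 lay nearer the controls, and its mean correlation across genes with them was 0.970, where AA2P library 1 had 0.959 and AA2P library 2 had 0.961. The labels do not say whether the libraries of a group are from different cultures or animals. The p-values therefore reflect the spread among these samples alone, and that spread may be technical. Of 15 Sertoli cell markers 12 had a row, and their summed level was 1139 to 1670 CPM in AA2P libraries and 4130 to 4439 CPM in control libraries, most of it from clusterin (CLU). Of the 7 tested, 2 rose and 4 fell, where 52.1% of all tested genes were called. The 2 that rose were TF and CITED1, at 2.91 and 0.709 CPM with AA2P and 0.238 and 0.369 CPM in control. Their control libraries held few counts, 2 to 8 for TF and 4 to 10 for CITED1. Both passed the filter on low counts through their AA2P libraries, so their rises are given as a description. The factors SOX9 and WT1 were at 34 to 58 and 397 to 687 counts in AA2P libraries and 209 to 273 and 704 to 1010 counts in control libraries, and INHBB, an inhibin subunit, was at 51 to 89 counts with AA2P and 97 to 121 in control; all of these were called lower. INHA had 0 counts in all AA2P libraries and at most 1 in a control library, and DHH, NR5A1 and AMHR2 had 2 to 3, 0 to 3 and 8 to 12 counts in AA2P libraries and 0 to 2, 0 to 5 and 6 to 9 counts in control libraries. AMH, a product of immature Sertoli cells, was at 654 to 904 counts in AA2P libraries and 664 to 778 in control libraries. The labelled cell type thus had some of its markers expressed and others, INHA, DHH and NR5A1, at or near 0 in both groups.

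The pore-forming claudins CLDN2 and CLDN10 were higher with AA2P, CLDN4 and CLDN7 were lower, and CLDN1 moved little. Of the 8 members with a row, 6 had enough counts to be tested. By edgeR's quasi-likelihood test with an adjusted p of 0.05 over all genes, 2 of the 6 were called higher, CLDN2 and CLDN10, and 3 were called lower, CLDN1, CLDN4 and CLDN7, while CLDN6 was not called. Of all 12701 genes tested, 52.1% were called, 26.0% higher and 26.1% lower. All tested members but CLDN6 had groups that did not overlap, against 59.3% of all tested genes. These shares stand beside counts from the contrast that chose the family and are not read further. The plot of claudin levels by library shows the 8 members grouped by role.

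**Figure D1:**
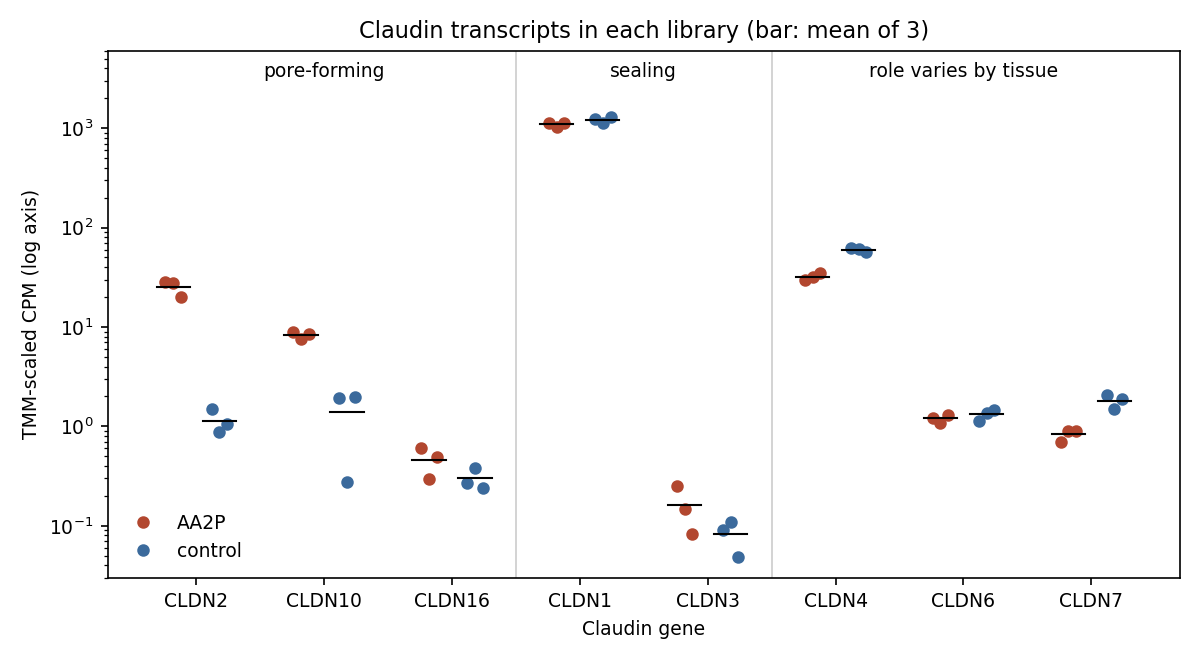
TMM-scaled CPM on a log axis for the 8 claudin members with a row; each point is a library, AA2P left and control right of each gene, and bars are means of 3. CLDN2 and CLDN10 lie higher in AA2P libraries, and CLDN4 and CLDN7 lie lower. CLDN3 sits near the level of 3 counts, and CLDN16 sits above it, at 5 to 12 counts.

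CLDN2 was the member with the largest change. It stood at 28.1, 27.7 and 20.2 CPM in AA2P libraries 1 to 3, against 1.49, 0.882 and 1.07 CPM in control libraries 1 to 3. The groups were far apart, and AA2P library 3 was the lowest of its group while control library 1 was the highest of its own. Behind these levels were 562, 560 and 491 counts in AA2P libraries and 33, 16 and 22 counts in control libraries. The fitted log2 fold change was 4.43 (SE 0.18), a 21.6-fold higher level. In these bulk libraries, a change in the number of cells expressing a claudin and a change in its RNA per cell cannot be told apart.

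CLDN10, the other pore-forming member tested, had 8.81, 7.63 and 8.55 CPM in AA2P libraries, against 1.94, 0.276 and 1.99 CPM in control libraries. The AA2P libraries lay close together, while control library 2, with 5 counts against 43 and 41 in the other controls, stood far under its group. The fitted log2 fold change was 2.52 (SE 0.28), or 5.72-fold higher. Without control replicate 2 the log2 fold change was 2.08. CLDN10 passed the filter on low counts through its AA2P libraries, since control library 2 lay under the filter's 10 counts. Counts per gene do not separate the isoforms that form cation channels from those that form anion channels.

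CLDN16, the kidney claudin of magnesium handling, had too few counts to pass the filter of the main fit. It had 12, 6 and 12 counts in AA2P libraries, or 0.601, 0.297 and 0.493 CPM, against 6, 7 and 5 counts in control libraries, or 0.270, 0.386 and 0.243 CPM. The groups overlapped, since AA2P library 2 lay under control library 2.

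Among the sealing members, CLDN1, a broadly expressed claudin required for the barrier of mouse skin, was at 1123, 1037 and 1121 CPM in AA2P libraries, against 1239.9, 1134 and 1280.4 CPM in control libraries. The groups did not overlap, but the highest AA2P library and the lowest control library were 1123 and 1134 CPM. The log2 fold change was -0.16 (SE 0.05), or 1.11-fold lower. The call was lost without AA2P replicate 2, control replicate 1 or control replicate 3, at log2 fold changes of -0.12, -0.14 and -0.12, and with library totals the value was 0.014. CLDN3, a sealing claudin of many epithelia, had 5, 3 and 2 counts in AA2P libraries and 2, 2 and 1 counts in control libraries. These are at or about the level of 3 counts, so no fold is given and a difference was not detectable at this depth.

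CLDN4, which binds the toxin of Clostridium perfringens and has been given both barrier and anion channel roles, was at 29.4, 31.6 and 35.2 CPM in AA2P libraries, against 61.8, 61.3 and 56.7 CPM in control libraries. All AA2P libraries lay under all controls, and the spread within each group was small. The log2 fold change was -0.90 (SE 0.07), or 1.86-fold lower. CLDN7, a claudin that binds EPCAM at the lateral membrane, had 0.701, 0.892 and 0.904 CPM in AA2P libraries and 2.07, 1.49 and 1.89 CPM in control libraries. The groups did not overlap, on 14 to 22 counts in AA2P libraries and 27 to 46 counts in control libraries. Its log2 fold change was -1.13 (SE 0.25), or 2.18-fold lower. CLDN6, a claudin of embryonic epithelia, was at 1.20, 1.09 and 1.31 CPM in AA2P libraries and 1.13, 1.38 and 1.46 CPM in control libraries. The groups overlapped, and the log2 fold change of -0.12 (SE 0.24) did not pass the test. With library totals it was 0.046.

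**Figure D2:**
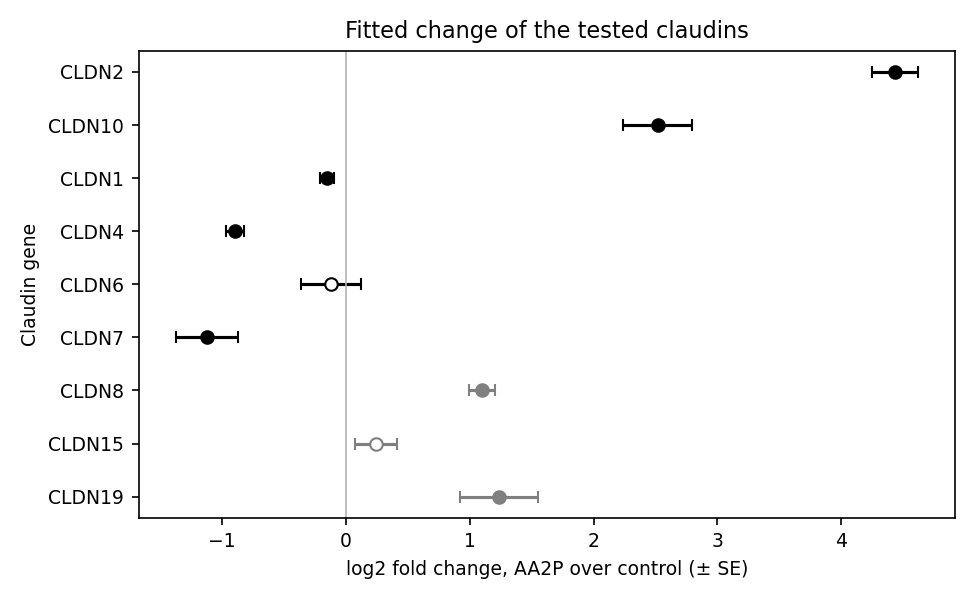
Fitted log2 fold change of AA2P over control with its standard error for the 6 tested members (black) and 3 other tested claudins (grey); filled points passed an adjusted p of 0.05 and open points did not. CLDN2 lies farthest to the right at 4.43, and CLDN7 farthest to the left at -1.13.

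Pore-forming and sealing claudins were set side by side within each library by summing the reads of CLDN2, CLDN10 and CLDN16 and those of CLDN1 and CLDN3. These are shares of reads and not per length, so they do not rank the genes by level. Pore-forming reads made up 3.23%, 3.33% and 2.54% of pore-forming plus sealing reads in AA2P libraries, against 0.297%, 0.136% and 0.257% in control libraries. The share averaged 3.03% ± 0.430 with AA2P and 0.230% ± 0.0840 in control (SD, n = 3 each). The exact 95% binomial intervals lay between 2.36% and 3.57% in AA2P libraries and between 0.0903% and 0.369% in control libraries, and they cover counting error only. Every AA2P library lay above every control, and no test is given because the same contrast chose the family. Without CLDN10 the shares were 2.31% with AA2P and 0.118% in control.

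**Figure D3:**
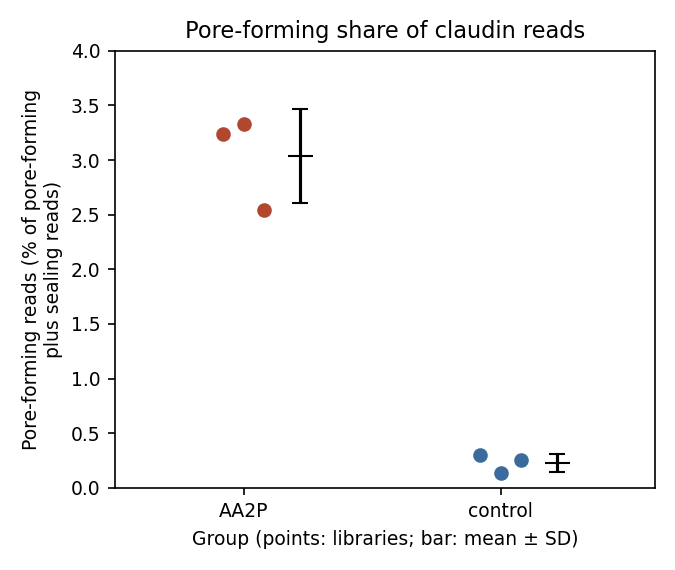
Reads of CLDN2, CLDN10 and CLDN16 as a percentage of these plus the reads of CLDN1 and CLDN3; points are libraries and bars are means with SD (n = 3 each). The AA2P libraries sit between 2.54% and 3.33% and the control libraries between 0.136% and 0.297%.

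The total of member reads overlapped between the groups. The members took 0.123% ± 0.00504 of all counts with AA2P and 0.121% ± 0.00734 in control (SD, n = 3 each). CLDN1 supplied 94.1% ± 0.341 of member reads with AA2P and 94.8% ± 0.396 in control (SD, n = 3 each). Pore-forming reads were 2.94% ± 0.421 of member reads with AA2P and 0.219% ± 0.0803 in control, and reads of CLDN4, CLDN6 and CLDN7 were 2.94% ± 0.276 with AA2P and 4.93% ± 0.442 in control. Among the pore-forming reads themselves, CLDN2 made up 73.9% ± 4.45 with AA2P and 43.2% ± 12.7 in control.

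Of 13 other claudins, 7 had a row and 3 were tested, of which CLDN8 and CLDN19 rose and none fell. Over all tested genes 26.0% were called higher and 26.1% lower. CLDN8, a cation barrier of the distal nephron that pairs with CLDN4 in mouse collecting duct, was at 101, 86.9 and 71.7 CPM in AA2P libraries and 43.5, 35.4 and 41.8 CPM in control libraries. The groups did not overlap, and AA2P library 3 was again the nearest to the controls. Its log2 fold change was 1.10 ± 0.10 (SE; edgeR adjusted p = 1.5e-07). CLDN19, the partner of CLDN16 in the kidney, had 2.15, 2.92 and 1.40 CPM in AA2P libraries and 1.26, 0.716 and 0.680 CPM in control libraries, with a log2 fold change of 1.24 ± 0.31 (SE; edgeR adjusted p = 0.00343). AA2P library 3 and control library 1 came close to each other for this gene. CLDN15, a cation pore former of the intestine, was at 3.33 ± 0.182 CPM with AA2P and 2.83 ± 0.418 CPM in control (SD, n = 3 each), and its log2 fold change of 0.24 had an edgeR adjusted p of 0.247. With library totals CLDN15 passed the threshold at a log2 fold change of 0.41. CLDN9, CLDN14, CLDN17 and CLDN22 had 0 to 2 counts in AA2P libraries and 0 to 4 counts in control libraries, which was too few to pass the filter of the main fit.

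Most of the claudins that were called lay nearest to the controls in AA2P library 3. Relative to the control mean, CLDN2 and CLDN8 stood at log2 values of 4.62 and 1.33 in AA2P library 1, 4.60 and 1.11 in library 2, and 4.14 and 0.83 in library 3. CLDN4, on the other side of 0, stood at -1.03, -0.92 and -0.77 in the same libraries, so it too lay nearest to the controls in library 3. CLDN7, at -1.38, -1.03 and -1.01, and CLDN19, at 1.28, 1.72 and 0.66, were also nearest in library 3. CLDN10 stood at 2.65, 2.45 and 2.61, on 176, 154 and 208 counts. In control library 2, CLDN10 stood at -2.35 while CLDN2 stood at -0.38.

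**Figure D4:**
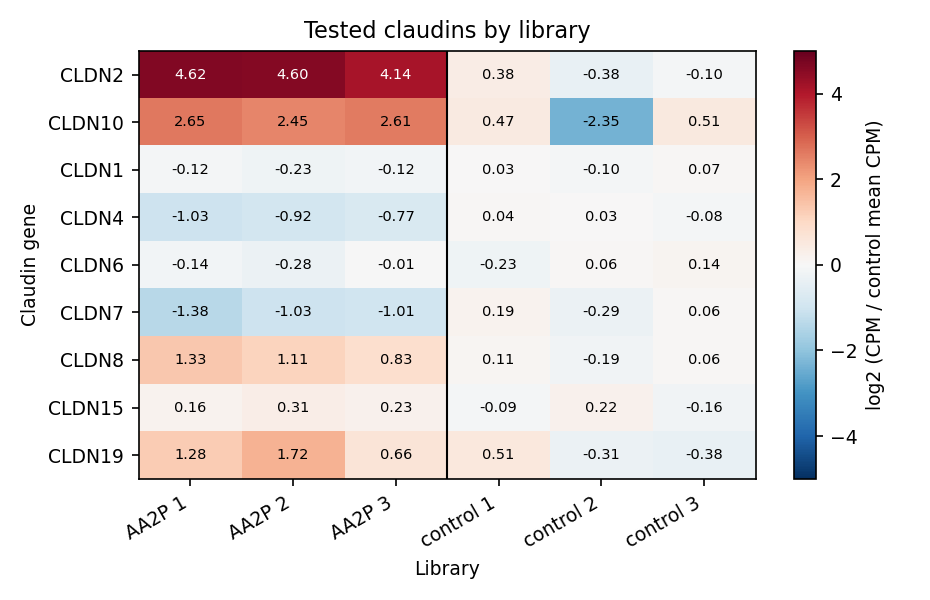
Log2 of each library's CPM over the gene's control mean for the 9 tested claudins, with AA2P libraries on the left and control libraries on the right of the line; red is above and blue below the control mean. CLDN2, CLDN10, CLDN8 and CLDN19 are above 0 in every AA2P library, CLDN4 and CLDN7 below, and CLDN10 in control library 2 is at -2.35.

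Some members lie beside each other in the genome. In the RefSeq gene order of the Sscrofa11.1 pig assembly, CLDN3 and CLDN4 had no protein-coding gene between them, nor did CLDN1 and CLDN16, CLDN6 and CLDN9, or CLDN17 and CLDN8. The build behind the counts is not given in the sources used here, so the assembly serves only for the order of genes. Neighbours differed in their counts: CLDN4 had 587 to 856 counts in AA2P libraries and 1112 to 1371 in control libraries, where CLDN3 had at most 5 and 2. CLDN8 had 1745 to 2018 counts in AA2P libraries and 642 to 965 in control libraries, where CLDN17 had a single count, in control library 3.

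By a rule of likeness, the distance between log2 CPM profiles (prior count of 2) over the 6 libraries after centring each gene on its mean, the genes nearest to CLDN2, where only those averaging at least 5 CPM were ranked, were GDPD2, ANPEP, PKHD1, PDZK1 and PROC. Their distances were 0.55, 0.64, 0.99, 1.17 and 1.25 on the log2 scale. These encode a glycerophosphodiester phosphodiesterase family member, the brush border aminopeptidase N, the ciliary protein fibrocystin, a scaffold of apical transporters and protein C. The distance was taken over the same 6 libraries, so for CLDN2 it mostly follows the difference between the groups. The named genes had log2 fold changes of 3.58 to 4.74, and whether they are regulated together with CLDN2 was not tested.

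Genes that act with claudins at the tight junction were called in both directions. Of 35 listed partner symbols 30 had a row and 26 were tested, of which 7 rose, 9 fell and 10 did not pass. Their median log2 fold change was 0.04. The list held both PALS1 and MPP5, an older symbol of the same gene, which had its row as PALS1. Over all tested genes 26.0% were higher and 26.1% lower, and the median over all tested genes was -0.00049. Under library totals the split was 14 higher and 3 lower, at a median of 0.21, where 5727 of all 12701 genes were higher and 1822 lower. TJP3, a scaffold of the zonula occludens family that binds claudin tails, was at 64.3 ± 3.23 CPM with AA2P and 28.1 ± 1.21 CPM in control (SD, n = 3 each), a log2 fold change of 1.20 (edgeR adjusted p = 2.1e-10). PATJ, a scaffold of the Crumbs polarity complex, was at 328 ± 29.8 CPM with AA2P and 165 ± 5.39 CPM in control, a 1.99-fold rise. CGNL1, the junction protein paracingulin, and AMOT, angiomotin, which binds PATJ, rose 1.59-fold and 1.52-fold. EPCAM, the partner of CLDN7, was picked out after its values were seen; it was at 12.4 ± 0.775 CPM with AA2P and 24.9 ± 0.345 CPM in control, 2.01-fold lower (edgeR adjusted p = 3.2e-08).

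Occludin and the main zonula occludens scaffold differed between the groups by small amounts. OCLN, which encodes occludin, was at 80.2, 76.5 and 75.9 CPM in AA2P libraries and 74.1, 71.9 and 73.1 CPM in control libraries. Its log2 fold change of 0.08 had an edgeR adjusted p of 0.189. TJP1, the main zonula occludens scaffold, was at 246 ± 3.74 CPM with AA2P and 268 ± 6.76 CPM in control (SD, n = 3 each), and its log2 fold change of -0.12 passed with an edgeR adjusted p of 0.0361 but changed sign with library totals.

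**Figure D5:**
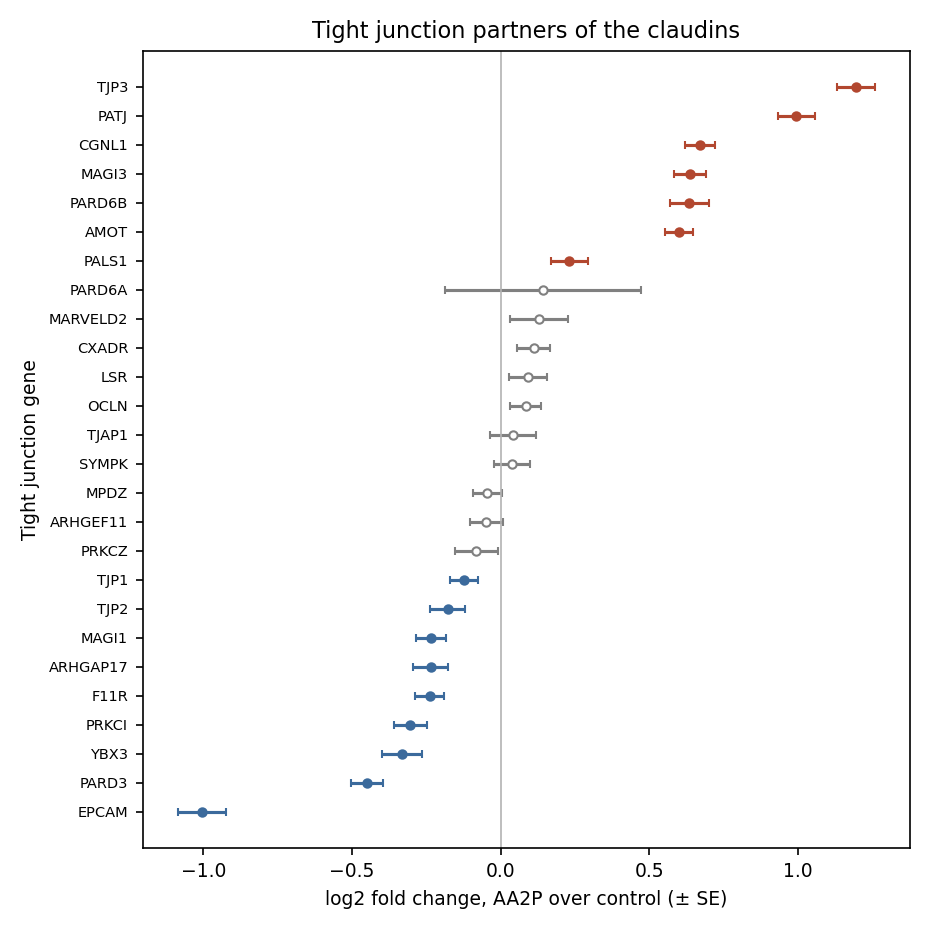
Fitted log2 fold change of AA2P over control with its standard error for the 26 tested tight junction partners; red points were called higher, blue points lower and open grey points not called. TJP3 is highest at 1.20 and EPCAM lowest, and 10 of the 26 were not called.

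Transcription factors known to act on claudin promoters were also read. Of 22 listed, 16 had a row and 12 were tested, of which 4 rose and 6 fell, where 52.1% of all tested genes were called. The median log2 fold change was -0.17. Under library totals 4 rose and 4 fell, beside the 5727 and 1822 of all genes. Those that rose include HNF4A, a nuclear receptor of liver, gut and kidney epithelia, and CDX2, a known activator of the CLDN2 promoter in intestinal cells. HNF4A was at 155 ± 21.1 CPM with AA2P and 38.6 ± 3.92 CPM in control (SD, n = 3 each), and CDX2 at 9.34 ± 0.580 CPM with AA2P and 2.07 ± 0.0279 CPM in control. Their log2 fold changes were 2.00 and 2.17 (edgeR adjusted p = 4.2e-11 and 1.7e-09). SNAI1, a repressor of several claudin genes, and VDR, the vitamin D receptor and a known inducer of CLDN2, were picked out after their values were seen. SNAI1 was at 0.508 ± 0.155 CPM with AA2P and 2.87 ± 0.408 CPM in control, a log2 fold change of -2.52 given as a description, since AA2P library 3 held 8 counts and the gene passed the filter through its control libraries. VDR was at 40.7 ± 6.18 CPM with AA2P and 72.3 ± 4.81 CPM in control, 1.77-fold lower (edgeR adjusted p = 6.7e-07).

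Of 19 genes of claudin turnover, phosphorylation and cleavage, 17 had a row and 16 were tested, of which 6 rose and 5 fell, again where 52.1% of all tested genes were called. The median log2 fold change was 0.02. Under library totals 9 rose and 5 fell, beside the 5727 and 1822 of all genes. LNX1, a ubiquitin ligase that removes claudins from the junction, was at 4.86, 4.86 and 4.03 CPM in AA2P libraries and 0.406, 0.551 and 0.485 CPM in control libraries. The control libraries held 9, 10 and 10 counts, at or under the 10 counts of the filter, so LNX1 passed it through its AA2P libraries, and its log2 fold change of 3.24 ± 0.23 (SE) is given as a description. SPINT1, an inhibitor of membrane serine proteases, and NEDD4L, a ubiquitin ligase of epithelial channels, rose 1.56-fold and 1.49-fold, while the related ligase NEDD4 fell by 0.58 on the log2 scale.

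Markers of other epithelial cells also differed between the groups, in both directions. Over all tested genes 26.0% were called higher and 26.1% lower. Of 12 markers of renal or mesonephric tubule epithelium 10 had a row and 8 were tested, of which 7 rose and 1 fell. Their summed level was 1036 to 1349 CPM in AA2P libraries and 356 to 401 CPM in control libraries, with UMOD and SLC22A6 at 0 or 1 count in every library. PAX2, CDH16 and LRP2 from this list averaged 134, 75.4 and 638 CPM with AA2P and 98.7, 33.0 and 80.1 CPM in control. The 1 that fell was EMX2, at 23.2 CPM with AA2P and 38.0 CPM in control. General epithelial markers, 9 of 10 with a row, had 2 of 7 tested genes higher and 4 lower, beside the same shares of all genes. CDH1 and OVOL1 were the higher ones, at 84.0 and 7.08 CPM with AA2P and 76.1 and 0.915 CPM in control. The lower ones were EPCAM, KRT8, KRT18 and ESRP1. They averaged 12.4, 723, 218 and 104 CPM with AA2P and 24.9, 1120, 372 and 199 CPM in control. The list summed to 1483 to 1685 CPM in AA2P libraries and 2164 to 2336 CPM in control libraries, with GRHL2 at 0 or 1 count. The part of these markers in the changes of CLDN2, CLDN10, CLDN4 and CLDN7 was not tested. Endothelial markers, 6 of 10 with a row, summed to 14.5 to 18.1 CPM in AA2P libraries and 12.3 to 14.2 CPM in control libraries, with EMCN at 0 to 2 counts. Of the 4 tested, 1 was called higher and 1 lower. PECAM1 was the higher one, at 6.97 CPM with AA2P and 2.26 CPM in control. EGFL7 was the lower one, at 4.3 CPM with AA2P and 6.87 CPM in control. Peritubular or smooth muscle markers, 6 of 6 with a row, summed to 293 to 345 CPM in AA2P libraries and 413 to 419 CPM in control libraries, and DES fell to 8.35 CPM with AA2P, against 39.1 CPM in control. TAGLN was also called lower, while CNN1 was called higher, at 1.18 CPM with AA2P and 0.595 CPM in control. CNN1 held 10, 11 and 15 counts in control libraries 1 to 3, and control library 1 was the deepest of all. It passed the filter of 10 counts through its AA2P libraries, so its rise is given as a description. Macrophage markers, 5 of 6 with a row, summed to 24.3 to 27.6 CPM in AA2P libraries and 28.1 to 30.6 CPM in control libraries, while AIF1 rose to 5.17 CPM with AA2P, against 0.727 CPM in control. AIF1 held 10, 12 and 22 counts in control libraries 1 to 3 and passed the filter in the same way, so its rise too is given as a description. CD14 was called lower, at 20.5 CPM with AA2P and 28.5 CPM in control. Leydig cell markers, 3 of 6 with a row, summed to 6.36 to 7.38 CPM in AA2P libraries and 5.58 to 5.84 CPM in control libraries. Germ cell markers, 3 of 7 with a row, summed to 2.75 to 2.84 CPM in AA2P libraries and 3.09 to 3.25 CPM in control libraries. The part of these lists in the claudin changes was not tested either, and CYP17A1, INSL3, PDGFRB, CSF1R and CD163 had 0 to 2 counts in each library.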

How the data were processed

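Total RNA of 3 AA2P and 3 control samples was extracted with TRIzol, and all libraries shared 1 sequencing lane, per the labels' protocols. Reads were handled with bcl2fastq and HISAT2 2.0.5, per the submitters' processing notes. How reads were counted, on which strand, annotation and build, is not given in the sources used here. A single file deposited by the authors holds raw whole-number counts per gene. Neighbouring or overlapping genes may therefore share reads. Symbols came from a table of gene names, which matched 13141 of the 17670 identifiers.

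The whole table was fitted in R 4.3.3 with edgeR 4.0.16 (quasi-likelihood F test, TMM factors of 1.05 to 1.07 in AA2P and 0.941 to 0.945 in control libraries, filterByExpr, group as the only term), with Benjamini-Hochberg adjustment over 12701 genes and a threshold of 0.05. Fold changes are AA2P over control. A standard error is the size of the log2 fold change divided by the root of its F statistic. The common biological coefficient of variation was 5.49%. Between replicates, counts differed beyond sampling noise (chi-square of 2.63 to 11.5 per degree of freedom). On simulated counts for this comparison (12616 genes tested) the fit found 37 of 50 genes with a simulated log2 change of 0.5, 48 of 50 with 1, all 50 with 2 and all 48 with 3. False calls were 15 of 198, or 7.58%. The simulation changed 200 genes, where 52.1% of all tested genes were called in the data. It therefore does not measure errors or scaling with as many changed genes as in the data.

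The alternatives were DESeq2 size factors, library totals, no filter, a filter of 1 CPM in 3 libraries, DESeq2 1.42.0, limma-voom (limma 3.58.1), the replicate block, each library left out in turn and a threshold of 0.01. Named genes were the members, other claudins with a row, OCLN, TJP1, up to 4 called genes of each further list by smallest p, and the 5 nearest to CLDN2; EPCAM, SNAI1 and VDR were added after their values were seen. The members, lists and rules were chosen with earlier results of these data known. Protein and promoter features were not analysed here, and some genes that the rule names are left out.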

Additional observations from a re-analysis of the deposited data

How the results depend on the processing

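CLDN2, CLDN4, CLDN7 and CLDN10 kept their direction and their call under every alternative run, and CLDN6 was called under none of them. Over the fits that left out a library, log2 fold changes ran from 4.29 to 4.68 for CLDN2, from 2.08 to 2.81 for CLDN10, from -0.97 to -0.84 for CLDN4 and from -1.24 to -1.02 for CLDN7. CLDN1 ran from -0.21 to -0.12 over these fits and lost its call in 3 of them, as it did at an adjusted p of 0.01. With library totals CLDN1 and CLDN6 changed sign, to log2 fold changes of 0.014 and 0.046, neither of them called, and the genes called over the whole table were 5727 higher and 1822 lower, against 3302 and 3313. That setting drops the factors that TMM gives, and the cause of the difference was not tested. Without CLDN10 the pore-forming share was 2.31% with AA2P and 0.118% in control, since fewer genes are summed.

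The replicate numbers showed no sign of pairing the libraries. Deviations of AA2P and control libraries with the same number correlated at -0.039, -0.017 and -0.055 across genes, and no library correlated best with its own number. With 3 libraries per group this cannot exclude a pairing. With the replicate block 3094 genes were called higher and 3110 lower, and CLDN2, at a log2 fold change of 4.44, and the other tested members kept their calls or, for CLDN6, stayed uncalled.

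Depth limits CLDN3 and CLDN16, which did not pass the filter of the main fit. Without a filter all 8 members with a row were tested. Of these 5 were called, 2 higher and 3 lower, and CLDN3 and CLDN16 were not among them. Low depth also leaves CLDN6, CLDN7, CLDN19 and the control levels of CLDN2 and CLDN10 resting on few counts. CLDN2 had 33, 16 and 22 counts in control libraries 1 to 3.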

Other observations

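The low level of CLDN10 in control library 2 was looked at after its values were seen. Its CPM there was 0.142 times that of the lower of the other control libraries. Of all 12701 tested genes, 11 had a ratio at or under this value, CLDN10 included, and CLDN10 was the only 1 of them with a mean of at least 1 CPM in control.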
